A study of Homo sapiens with 6 samples.

Results

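The genes described here encode the chains of the type I and type II interferon receptors (IFNAR1, IFNAR2, IFNGR1 and IFNGR2), the Janus kinases bound to them (JAK1, JAK2 and TYK2) and a pair of the transcription factors these kinases activate (STAT2 and STAT3). They were taken by symbol from the deposited count table, in which they are 9 of 16229 genes, and all 9 passed the filter on low counts. The table holds 6 RNA-seq libraries from cells with the line label MC38, the cell type label CRC cells (colorectal cancer) and the genotype label WT. In 3 of them the cells had been kept for 24 hours with GCA, taken from the series title to mean glycocholic acid, a bile acid conjugated to glycine, and in the 3 control libraries (CON) without it, which asks how exposure to the bile acid changes the cells' transcripts. No dose is given in the sources used here, and nothing in the labels says that replicates came from separate cultures, so each p-value measures the spread between these libraries, which may be technical. Although MC38 cells are usually described as murine, the organism label reads human, and the build (hg38) and gene symbols are human as well. That conflict was not resolved, and the titles of the GCA libraries carry the unexplained name fa. All values below rest on the treatment label.

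Interferon signalling runs from the cell surface to the nucleus in few steps. Type I interferons bind IFNAR1 and IFNAR2, which carry the kinases TYK2 and JAK1, and interferon gamma binds IFNGR1 and IFNGR2, which carry JAK1 and JAK2. The kinases phosphorylate STAT proteins. STAT2 and IRF9 are subunits of the complex ISGF3, which binds the interferon-stimulated response element (ISRE), and the gamma-activated site (GAS) is the element through which interferon gamma acts. STAT3 is best known for carrying signals of the interleukin-6 family of cytokines, and in epithelial cells it takes part in wound repair and tumour growth.

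Libraries held between 18057453 and 20531612 counts. A count of 3 in a library, used here as a floor, corresponded to 0.149 to 0.167 CPM (counts scaled to TMM-normalised library size), and it covers counting error only. CON 1 stood apart from CON 2 and CON 3 on the second principal component, at 34.5 against -14.7 and -17.8 (18.1% of the variance). It was the lowest CON library for 8 of the 9 genes, against 48.6% of all tested genes. The epithelial keratin gene KRT8 was abundant, at 4957 ± 795 CPM (SD, n = 3) in CON and 6994 ± 620 CPM in GCA, and rose in edgeR's test (adjusted p = 0.0301; 0.231 with a correction for GC content and length). KRT18 rose as well, from 1446 to 2356 CPM (log2 fold change 0.70, adjusted p = 0.00407; named after its value was seen), and of the 8 epithelial genes tested 3 were higher and 0 lower. KRT19, the second most abundant of the list in CON, stood at 2015 and 2265 CPM and did not pass (log2 fold change 0.17, and -0.35 with that correction). The extraction protocol in the labels speaks of heart tissue. Of the cardiomyocyte list, MYH6, MYH7, ACTC1 and NPPA had at most 1 count in any library (named after their values were seen). TNNT2, named likewise and under the filter, had counts of 1, 1 and 0 in CON and of 2, 11 and 10 in GCA. TNNI3, the most abundant gene of the cardiomyocyte list, stood at 23.8 ± 1.88 CPM in CON and 38.1 ± 2.65 CPM in GCA (edgeR adjusted p = 0.00136, and 0.317 with the correction). MYL2, the other tested gene of that list, stood at 1.64 ± 0.356 CPM in CON and lower, at 0.981 ± 0.441 CPM, in GCA. It did not pass (log2 fold change -0.73, edgeR adjusted p = 0.135, and -1.01 and 0.0504 with the correction).

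STAT2 and STAT3 rose modestly in GCA, while no receptor chain and no kinase among the 9 genes passed the test. By the quasi-likelihood F test of edgeR, with p-values adjusted by the Benjamini-Hochberg method over all tested genes, 2 of the 9 genes were higher, 0 were lower and 7 did not pass the threshold of 0.05. Over all 12604 tested genes 36.4% passed, 18.3% higher and 18.1% lower, so the members' share of 22.2% was not above this background. The count of 0 lower genes was also given by DESeq2 and limma-voom, and 1 gene, IFNGR2, was lower at an unadjusted p under 0.05 in edgeR. These counts changed when 1 library was left out, which also makes a group smaller. Without CON 2, CON 3 or GCA 2, 1 gene was called higher, and 0 without GCA 3. Without CON 1, 3 were higher and 2 lower. Over all tested genes, 2307 were higher and 2277 lower in the main test. These numbers were 1493 and 1128 without GCA 3, and 3225 and 3482 without CON 1. The GCA and CON libraries did not overlap in CPM for TYK2, STAT2 and STAT3, 3 of 9 genes, against 48.5% of all tested genes. The median log2 fold change was -0.06 over the 9 genes and -0.04 over all tested genes.

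The 9 transcripts were present at very different levels. Levels between genes are compared as FPKM, the fragment count divided by transcript length and library total, as the authors deposited it. In CON the order ran from IFNGR2 at 34.9 ± 6.89 FPKM through TYK2 (15.7 ± 0.826), STAT3 (15.4 ± 2.01), JAK1 (9.85 ± 1.26), IFNGR1 (5.55 ± 1.89), IFNAR2 (5.41 ± 1.36), STAT2 (5.35 ± 1.01) and IFNAR1 (3.84 ± 0.739) to JAK2 at 0.298 ± 0.136 FPKM. TYK2 and STAT3 overlapped over their libraries, as did each neighbouring pair from IFNGR1 to IFNAR1, while IFNGR2, JAK1 and JAK2 were separated from their neighbours. In GCA the order was IFNGR2 (27.5 ± 1.68 FPKM), STAT3 (18.8 ± 1.35), TYK2 (18.2 ± 1.92), JAK1 (8.49 ± 0.573), STAT2 (7.21 ± 0.774), IFNGR1 (5.84 ± 0.916), IFNAR2 (4.99 ± 0.315), IFNAR1 (3.05 ± 0.367) and JAK2 (0.201 ± 0.0606). STAT2 thus stood in the fifth place in GCA and in the seventh in CON, with libraries that overlapped both neighbours in GCA. JAK2 stood low in the table: 27.3% of all genes had a lower mean FPKM in CON, against 87.4% for IFNGR2.

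**Figure D1:**
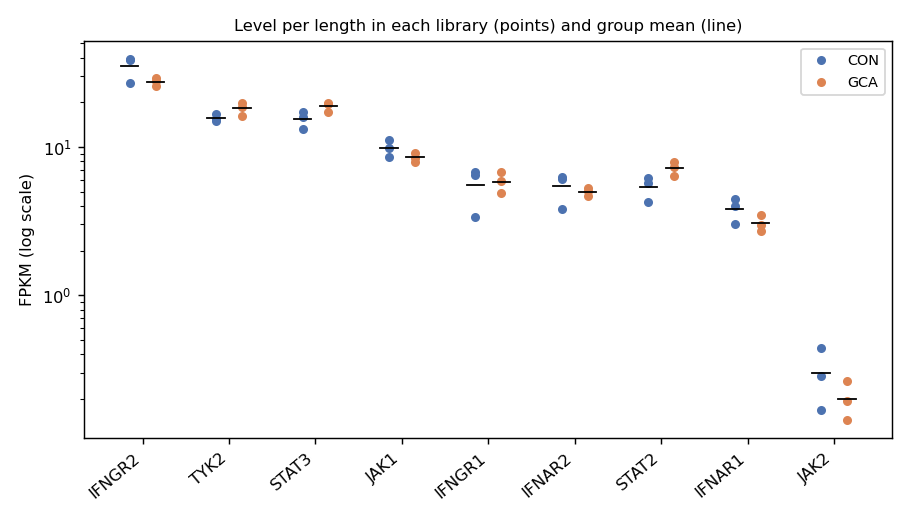
Level per transcript length of the 9 genes in each library, as the authors' FPKM values on a log axis, with points for libraries and a line for the group mean. IFNGR2 stands at the top in both groups (34.9 and 27.5 FPKM) and JAK2 far below the rest (0.298 and 0.201 FPKM).

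IFNAR1, the receptor chain that holds TYK2 (chromosome 21, 33324477 to 33359862, GRCh38), stood at 20.4, 26.7 and 24.2 CPM in CON 1 to 3 and at 22.3, 19.0 and 17.7 CPM in GCA 1 to 3. The groups overlapped through CON 1 and GCA 1. The log2 fold change was -0.28 ± 0.15 (SE; 95% confidence interval -0.60 to 0.05; edgeR adjusted p = 0.162). Leaving out CON 1 took it past the threshold, at -0.38 (adjusted p = 0.0262; 0.00413 to 0.971 over its alternatives).

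IFNAR2, the chain that holds JAK1 and anchors STAT2 before activation (chromosome 21, 33229901 to 33265675), had 17.6, 25.4 and 25.1 CPM in CON, against 20.4, 22.0 and 23.2 CPM in GCA. All 3 GCA libraries lay inside the range of CON. Its log2 fold change was -0.06 ± 0.16 (95% interval -0.40 to 0.28; edgeR adjusted p = 0.798). The gene body shares its strand with a gene annotated as AP000295.1 and lies opposite IL10RB-DT in GENCODE 29, and no source used here gives the strand setting of the counting.

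The ligand-binding chain of the interferon gamma receptor, IFNGR1 (chromosome 6, 137197484 to 137219449), had 9.75, 16.5 and 17.6 CPM in CON, against 13.5, 18.4 and 16.2 CPM in GCA. Replicate 1 was the lowest library in each group. The log2 fold change was 0.14 ± 0.21 (95% interval -0.31 to 0.59; edgeR adjusted p = 0.638). Without CON 1 it was -0.087 (adjusted p = 0.639). With the replicate number as a block and the correction for GC content and length together it passed as higher, at 0.41 (adjusted p = 0.0343; 0.0343 to 0.949 over its alternatives).

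The signalling chain IFNGR2 (chromosome 21, 33402896 to 33479348), which brings JAK2 to the complex, had 65.5, 83.5 and 84.8 CPM in CON, against 60.0, 64.0 and 67.9 CPM in GCA. CON 2 and CON 3 lay above every GCA library, and CON 1 lay among them. Its log2 fold change was -0.28 ± 0.13 (95% interval -0.56 to -0.0071), with an unadjusted p of 0.0452 and an edgeR adjusted p of 0.0995. It passed without CON 1 (-0.40, adjusted p = 0.00289) and, at -0.53, after correction for GC content and length (adjusted p = 0.0137), with adjusted p from 0.00223 to 0.335 over all alternatives. The gene body overlaps TMEM50B on the opposite strand, so reads of these genes cannot be told apart if strand was ignored in counting.

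**Figure D2:**
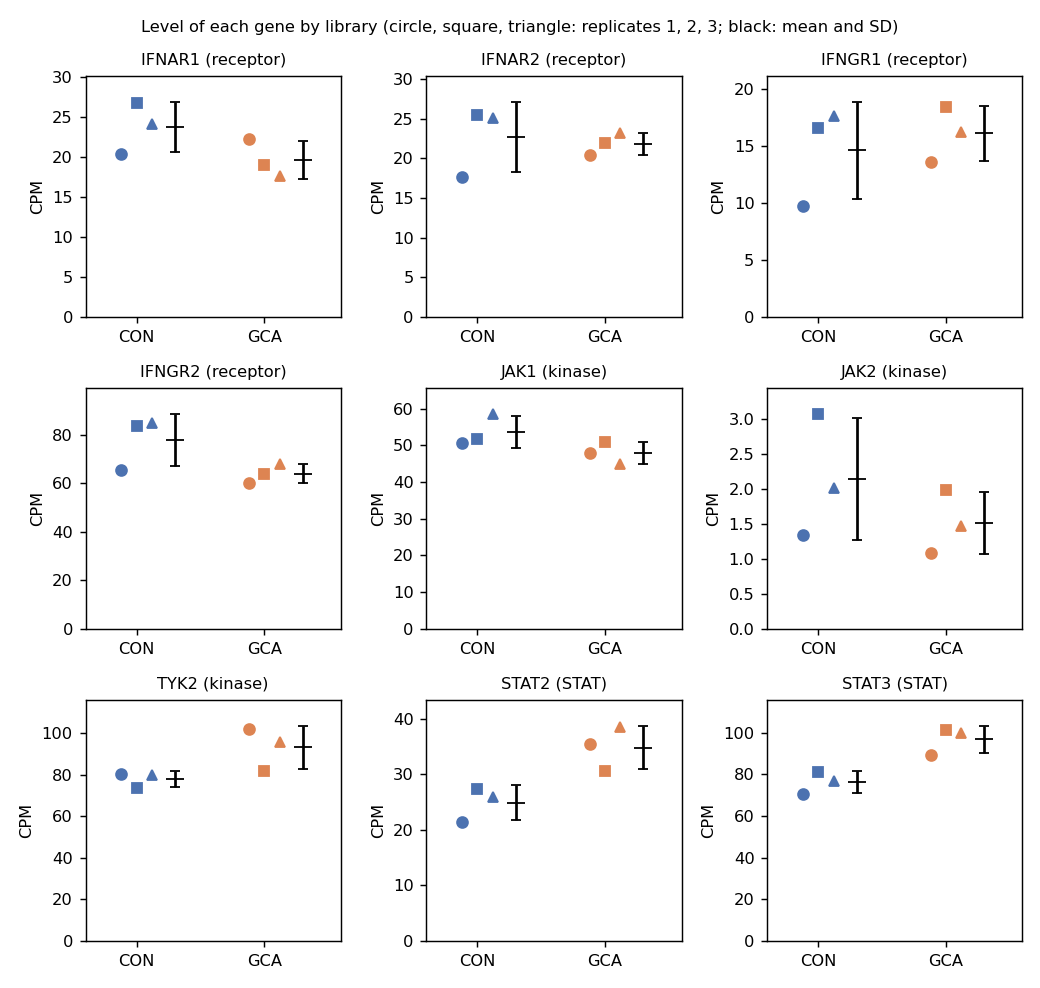
CPM of each gene in every library on axes that start at 0, with circles, squares and triangles for replicates 1, 2 and 3 and black marks for the group mean and SD. GCA lies wholly above CON for TYK2, STAT2 and STAT3, while the other 6 genes overlap, and CON 1 is the lowest CON library in 8 of 9 panels.

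Among the kinases, JAK1, shared by type I and type II receptors (chromosome 1, 64833229 to 64966504), had 50.6, 51.7 and 58.6 CPM in CON, against 47.9, 50.8 and 44.9 CPM in GCA. GCA 2 lay just above CON 1, so the groups overlapped. The log2 fold change was -0.16 ± 0.12 (95% interval -0.42 to 0.09; edgeR adjusted p = 0.285). Its gene body overlaps RAVER2 on the opposite strand.

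JAK2, the kinase of IFNGR2 (chromosome 9, 4984390 to 5128183), gave few reads, with counts of 24, 59 and 39 in CON and 22, 39 and 28 in GCA. These corresponded to 1.34, 3.08 and 2.02 CPM in CON and to 1.09, 1.99 and 1.47 CPM in GCA. The CON libraries differed among themselves by more than the group means did. Its log2 fold change of -0.51 ± 0.35 had the widest interval of the 9 genes, -1.26 to 0.25 (edgeR adjusted p = 0.272), which includes a change of the size seen in STAT2 in the downward direction. Without CON 1 the value was -0.75 (adjusted p = 0.0619) and without CON 2 it was -0.14 (adjusted p = 0.819; 0.0619 to 0.819 over its alternatives).

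TYK2, the kinase of IFNAR1 (chromosome 19, 10350529 to 10380676), had 80.6, 73.4 and 79.9 CPM in CON, against 102, 82.0 and 95.7 CPM in GCA. Every GCA library lay above every CON library, but GCA 2 only narrowly. The log2 fold change of 0.26 ± 0.12 (95% interval -0.0010 to 0.52) did not pass (edgeR adjusted p = 0.108). It passed without CON 1 (0.28, adjusted p = 0.0386; 0.0292 to 0.367 over its alternatives), and with the GC and length correction its sign turned, to -0.13.

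STAT2, the subunit that gives ISGF3 its main activation domain (chromosome 12, 56341597 to 56360155), had 21.3, 27.4 and 25.9 CPM in CON, against 35.4, 30.6 and 38.4 CPM in GCA. All 3 GCA libraries were above all 3 CON libraries. It rose 1.40-fold, from 24.9 ± 3.17 to 34.8 ± 3.94 CPM (log2 fold change 0.48 ± 0.14, 95% interval 0.18 to 0.79; edgeR adjusted p = 0.0169). The call was lost without GCA 3 (adjusted p = 0.0928), with library size alone (0.0581) and on log2 FPKM (0.0669 with a pseudocount of 0.1 and 0.0764 with 1), and the adjusted p ran from 0.00737 to 0.0928 over its alternatives. Without CON 1 the log2 fold change was 0.38 (adjusted p = 0.0162).

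STAT3 (chromosome 17, 42313324 to 42388568) had 70.7, 81.1 and 76.6 CPM in CON, against 89.1, 101 and 99.7 CPM in GCA. Here too every GCA library was above every CON library. The gene rose 1.27-fold, from 76.2 ± 5.22 to 96.7 ± 6.60 CPM (log2 fold change 0.34 ± 0.12, 95% interval 0.09 to 0.59; edgeR adjusted p = 0.0338). The call was lost with library size alone (adjusted p = 0.0819), on log2 FPKM (0.0880 and 0.0904) and in the fits without CON 2 (0.0577), without CON 3 (0.0843), without GCA 2 (0.113) and without GCA 3 (0.123), within a range of 0.000546 to 0.123 over its alternatives. Without CON 1 it was 0.29 (adjusted p = 0.0193).

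**Figure D3:**
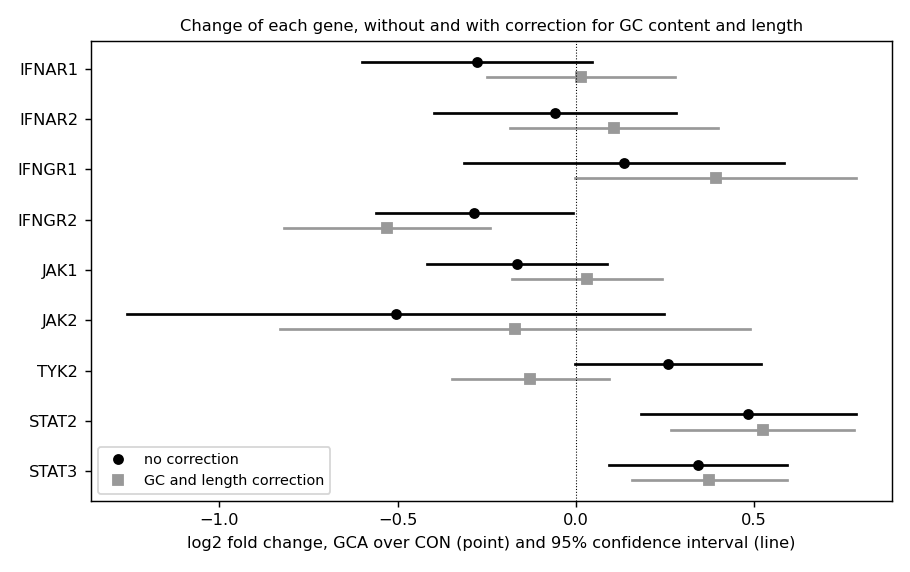
Log2 fold change of each gene in GCA over CON (points) with its 95% confidence interval (lines), without correction (black) and with correction for GC content and length (grey). The intervals of STAT2 and STAT3 lie above 0 in both fits, TYK2 moves from 0.26 to -0.13, and IFNGR2 lies below 0 in both, at -0.28 and -0.53.

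Fold changes correlated with GC content across all tested genes (r = 0.48, with the 6 libraries shared by all points and genes not being independent replicates), so the GC content of each transcript is given beside its value with and without correction. The GC content was 50.2% in STAT2 and 50.4% in STAT3, and their log2 fold changes moved little, to 0.52 (adjusted p = 0.00847) and 0.38 (adjusted p = 0.0173). It was highest in TYK2 (61.3%) and IFNGR2 (55.0%), and both values moved down. It was lowest in JAK2 (39.2%), IFNGR1 (40.2%) and IFNAR1 (42.3%), and these moved up, to -0.17, 0.39 and 0.014. JAK1 (46.2%) and IFNAR2 (47.0%) stood at 0.031 and 0.11 after correction. With the correction 2 of the 9 genes were higher and 1 was lower, against 12.2% and 17.2% of all genes tested in that fit. Whether the relation to GC content is technical was not tested.

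Because receptor chains and kinases act in pairs, ratios of their FPKM within each library were also compared, as descriptions without a test. How often the ratios of other gene pairs do not overlap was not computed. Of single tested genes, 48.5% did not overlap in CPM. TYK2 stood at 1.75, 1.56 and 1.496 times JAK1 in CON and at 2.34, 1.77 and 2.34 times JAK1 in GCA, and the groups did not overlap. IFNGR2 stood at 7.97, 5.99 and 5.73 times IFNGR1 in CON and at 5.25, 4.12 and 4.96 times in GCA, again without overlap. The ratio of IFNAR1 to IFNAR2 overlapped between groups, with means of 0.719 ± 0.0675 in CON and 0.615 ± 0.115 in GCA. STAT2 stood at 1.003 ± 0.0852 times the level of IFNAR2, the chain it docks on, in CON and at 1.45 ± 0.164 times in GCA, and these groups did not overlap. The same held for STAT3, at 2.92 ± 0.446 times IFNAR2 in CON and 3.78 ± 0.133 times in GCA. IFNAR2 itself changed little (log2 fold change -0.06), so both ratios mainly repeat the rises of STAT2 and STAT3. The ratio of STAT3 to STAT2 overlapped, at 2.90 ± 0.194 and 2.64 ± 0.409. TYK2 is richer in GC than JAK1 and IFNGR2 richer than IFNGR1, and the first ratio was higher in GCA while the second was lower. The fold changes corrected for GC content and length, -0.13 for TYK2 against 0.031 for JAK1, put the first ratio in the opposite direction, while -0.53 for IFNGR2 against 0.39 for IFNGR1 keep that of the second.

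The stretch upstream of the genes that rose is shown because GAS and ISRE are the elements through which this pathway acts on promoters. RefSeq promoter windows (GRCh38.p14, 250 bases before to 50 after a start) were at hand for 8 of the 9 genes, 15 windows in all. The lines give the strand of the gene, 5′ to 3′, for the bases from 250 to 49 before the RefSeq start of STAT2 (chr12:56360156-56360357, minus strand) and from 250 to 127 before that of STAT3 (chr17:42388569-42388692, minus strand). Each ends where the GENCODE 29 gene begins. Capitals mark the GC box (GGGCGG) and the CCAAT box (CCAAT) on either strand, which do not overlap each other.
STAT2: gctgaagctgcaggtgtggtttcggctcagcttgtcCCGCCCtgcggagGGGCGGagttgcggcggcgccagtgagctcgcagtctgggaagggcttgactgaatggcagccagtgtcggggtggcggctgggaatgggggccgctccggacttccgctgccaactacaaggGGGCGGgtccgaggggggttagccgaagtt
STAT3: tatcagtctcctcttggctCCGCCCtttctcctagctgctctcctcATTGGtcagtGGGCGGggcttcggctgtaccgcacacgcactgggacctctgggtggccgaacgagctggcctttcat

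Neither the GAS motif TTCNNNGAA nor the ISRE motif (TTTC, any 2 bases, TTTC), each searched on both strands, matched in any of the 15 windows. Of all 34943 RefSeq windows of this length, 7.66% held the GAS motif and 3.57% the ISRE motif. The GC box matched in 8 of the 15 windows and in 44.9% of all windows, and the CCAAT box in 3 of 15 and 34.6%. Among the genes of 3 related lists with a window, GAS matched in IRF9 and IFNLR1, which rose, and in IL10RB (0.069, edgeR adjusted p = 0.717) and CISH (0.035, adjusted p = 0.903; named after its value was seen), which did not pass, and ISRE matched in SOCS1, which rose. JAK3 and STAT6, which rose, held neither. Whether a match bears on a change was not tested. To show what a match looks like, the lines give 30 bases around the GAS match of IRF9 (chr14:24161191-24161220, plus strand) and the ISRE match of SOCS1 (chr16:11256298-11256327, minus strand), with the match in capitals.
IRF9: gaccacgtgatTTCTGGGAAaaggccctcc
SOCS1: cgccaccgcgGAAAGAGAAAccaaaagtgg

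A match describes letters only, and its absence says only that these letters are not in the window.

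Related kinases and STATs were compared next. Of the 4 tested genes in the list of JAK3, STAT4, STAT5A, STAT5B and STAT6, 2 were higher in edgeR and DESeq2 and 1 in limma-voom, while 0 were lower in these 3 tests or at an unadjusted p under 0.05 in edgeR. The higher count was also 1 when any 1 library other than CON 1 was left out. JAK3, a kinase of lymphoid cytokine receptors, rose by 0.87 ± 0.19 from a low level (5.51, 8.29 and 9.32 CPM in CON, 13.3, 13.6 and 15.5 CPM in GCA; adjusted p = 0.00446). STAT6, the transducer of interleukin-4 signals, passed narrowly at 0.33 ± 0.12 (adjusted p = 0.0482) and after correction for GC content and length stood at 0.10 (adjusted p = 0.470, the highest of its alternatives, which began at 0.0220). STAT4 (0.85 ± 0.38, adjusted p = 0.098) and STAT5B (-0.32 ± 0.25, adjusted p = 0.326) did not pass, and STAT5A had at most 3 counts in a library. STAT4 gave few reads, with counts of 9, 9 and 15 in CON and of 16, 23 and 23 in GCA. With GC content and length corrected for, STAT4 passed as higher at 1.08 (edgeR adjusted p = 0.0425). It passed in 2 of its 18 alternatives, over which the adjusted p ran from 0.0405 to 0.265. The JAK3 value with that correction was 0.58 (edgeR adjusted p = 0.0274, with 0.000254 to 0.0323 across all alternatives).

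JAK3 is typical of leukocytes, so leukocyte markers are given beside it. The 8 markers together summed to 28.1 to 32.3 CPM in CON and to 32.3 to 42.1 CPM in GCA, mostly from CD68 and CORO1A, and 2 of them could be tested. CORO1A rose by 1.16 ± 0.25 on the log2 scale (edgeR adjusted p = 0.00368), CD68 did not pass (-0.29, adjusted p = 0.273), and the defining genes PTPRC and CD3E had at most 1 count in any library. After the GC and length correction CORO1A stood at 0.69 (edgeR adjusted p = 0.0414). In these libraries, a change in the number of cells of a type and a change in RNA per cell cannot be told apart. The part of such cells in the JAK3 result was not tested.

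IRF9, the DNA-binding subunit of ISGF3, stood at 10.9, 16.9 and 20.4 CPM in CON and at 54.8, 66.4 and 80.6 CPM in GCA, a 4.18-fold rise beside the 1.40-fold rise of STAT2 (log2 fold change 2.06 ± 0.20, edgeR adjusted p = 2.23e-05). Per length, IRF9 was at 1.70 ± 0.372 times STAT2 in CON and at 5.17 ± 0.907 times in GCA, with no overlap. Of the type III interferon receptor, which signals through the same kinases as the type I receptor, IFNLR1 rose by 0.50 ± 0.14 (21.5 ± 1.42 to 30.4 ± 3.78 CPM; adjusted p = 0.0123). Its call was lost without GCA 2 (adjusted p = 0.0507) or GCA 3 (0.0742), and on log2 FPKM (0.0519 and 0.0597), within 0.000232 to 0.0742 over its alternatives. The second chain, IL10RB, did not pass (0.069 ± 0.14, adjusted p = 0.717).

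Interferon transcripts themselves were near the limit of detection. Of 22 interferon genes listed, 3 had a row, IFNE, IFNL1 and IFNL3, and none passed the filter. IFNL1 gave counts of 0, 0 and 2 in the CON libraries, against 4, 1 and 3 in GCA, and IFNL3 gave 0, 0 and 2, against 5, 0 and 3. These counts are at or near the floor of 3, and IFNE had 0 in every CON library and 3, 4 and 0 in GCA. The interferon genes without a row were not analysed here.

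Negative regulators moved in both directions. Of 18 tested genes 4 were higher, 5 were lower and 9 did not pass. These shares, 22.2% and 27.8%, stand beside 18.3% and 18.1% over all tested genes. SOCS1, which blocks JAK1, JAK2 and TYK2, rose 4.93-fold from 7.29 ± 0.304 to 36.0 ± 9.49 CPM (log2 fold change 2.30 ± 0.19, edgeR adjusted p = 6.01e-06). Its log2 fold change was 1.63 after correction for GC content and length (edgeR adjusted p = 0.000318). The phosphatase genes PTPN11 and PTPN2 fell by 0.66 and by 0.63 (log2; edgeR adjusted p = 0.00186 and 0.00472), and the values were -0.37 and -0.34 once GC content and length were corrected for (adjusted p = 0.0176 and 0.0482, within 5.21e-07 to 0.0205 and 0.000423 to 0.0482 over their alternatives). PTPN2, which removes phosphate from JAK1 and STATs, stood at 26.8, 29.7 and 30.7 CPM in CON and at 15.7, 20.5 and 20.1 CPM in GCA. After the GC and length correction 2 of these genes were higher and 4 lower. Without CON 3 or GCA 3 the higher count was 2, and without any 1 library other than CON 1 the lower count was 3. Of the other cytokine receptors that use JAKs, 4 of 13 tested genes were higher and 0 lower in edgeR, in DESeq2 and in limma-voom, with 0 lower at an unadjusted p under 0.05. IL11RA, the interleukin-11 receptor, rose by 1.16 ± 0.18 (5.20 ± 0.509 to 11.6 ± 1.67 CPM; adjusted p = 0.000475), EPOR by 0.48 and IL10RA by 0.88. Corrected for GC content and length, IL11RA stood at 0.83 and IL10RA at 0.79 (edgeR adjusted p = 0.00273 and 0.0237). EPOR stood at 0.12 in that fit (edgeR adjusted p = 0.410, the highest of its alternatives, which began at 0.000946). Without GCA 3, 1 receptor of this list was called.

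Most tested targets of ISGF3 rose. Of 25 tested ISGF3 targets 17 were higher, 0 were lower and 8 did not pass, with a median log2 fold change of 1.13 against -0.04 over all tested genes; 0 were lower at an unadjusted p under 0.05 and by DESeq2 or limma-voom. IFIT1, an RNA-binding antiviral effector, rose by 3.16 ± 0.21 on the log2 scale (edgeR adjusted p = 7.90e-07), IFI6 by 3.76 ± 0.22 and OAS1 by 4.12 ± 0.26. OAS2 and MX2 stayed under the filter. Of 11 tested interferon gamma targets 8 were higher and 1, the tryptophanyl-tRNA synthetase gene WARS1, was lower (fell by 0.93; named after its value was seen), with a median of 1.05. PSMB9, an immunoproteasome subunit, rose by 2.06 ± 0.18, NLRC5, an activator of MHC class I genes, by 1.05 ± 0.15, and IRF1 by 0.82 ± 0.12 (adjusted p = 0.00038). CIITA and GBP3 stayed under the filter.

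STAT3 targets gave a mixed picture. Of 18 tested genes 7 were higher, 3 were lower and 8 did not pass, with a median of 0.22. The acute-phase genes SERPINA3 and LCN2 rose by 5.32 ± 0.40 and 2.89 ± 0.25 (edgeR adjusted p = 2.38e-06 and 6.21e-06) and BCL3 by 0.57 ± 0.12 (adjusted p = 0.00282). SOCS3, the feedback inhibitor best known as a STAT3 target and outside the naming rule, did not pass (0.32 ± 0.18, adjusted p = 0.193). After the GC and length correction the count became 2 higher and 5 lower, the median -0.09 and the BCL3 value 0.08 (adjusted p = 0.567; 9.93e-05 to 0.567 over its alternatives). Without GCA 3, 1 gene was called lower. SAA1 and FGG stayed under the filter.

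**Figure D4:**
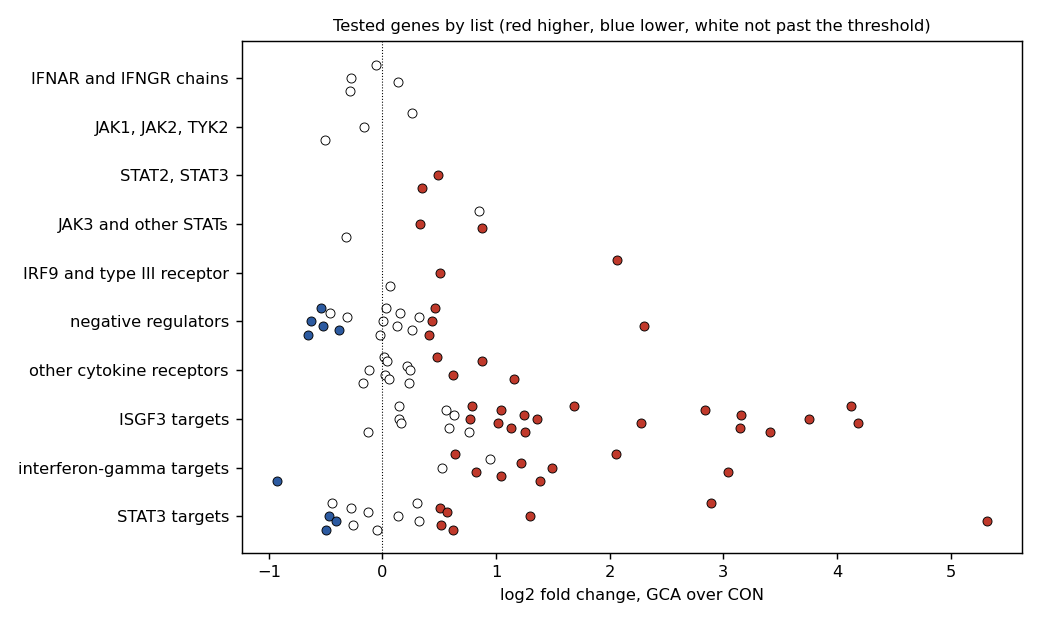
Log2 fold change in GCA over CON of every tested gene of the receptors, kinases and STATs described here and of the related lists (1 point per gene; red higher, blue lower, white not past the adjusted threshold; vertical position within a row carries no value). The receptor chains and kinases lie between -0.51 and 0.26, while ISGF3 targets reach 4.19 and STAT3 targets reach 5.32 (SERPINA3).

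The tested genes whose log2 CPM over the 6 libraries was most like that of STAT2, the member with the larger rise, were SLC48A1, ADGRE5 and AGRN, each at a Pearson r of 0.995 or 0.996. As many as 189 genes had an r above 0.95 with STAT2 over these 6 points, which share libraries and depth, so the likeness singles out none of them. SLC48A1 did not pass the test (0.23, edgeR adjusted p = 0.146), while ADGRE5 (0.36, adjusted p = 0.0399) and AGRN (0.43, adjusted p = 0.0259) rose.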

How the data were processed

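Gene expression was measured by RNA-seq in 6 libraries, 3 per group. The authors deposited raw counts and FPKM values of 16229 genes, listed by symbol. The submitters' processing notes name hg38, HTSeq 0.11.2, HISAT2 2.2.1.0 and fastp 0.20.1. The annotation and strand setting were not given in the sources used here. Deposited FPKM values equal count over total count and a single gene length (relative tolerance 1e-09), so they add no independent measurement. Counts were tested with edgeR 4.0.16 in R 4.3.3 (TMM, filterByExpr with a minimum count of 10 and total of 15, quasi-likelihood F test, no block), fitted on all genes with Benjamini-Hochberg adjustment at 0.05. The SE is the log2 fold change over the square root of F. DESeq2 1.42.0, limma 3.58.1, other normalisations and filters, the replicate block, omission of libraries, and offsets from splines (5 degrees of freedom) of log2 CPM (prior count 2) on GC content and length were alternatives. GC content (longest GENCODE 29 transcript) was matched for 99.2% of genes. Same-numbered CON and GCA libraries deviated together (correlations over genes 0.206, 0.137 and 0.104, each above the limit of 0.1). The last of these lay close to 0.0954, the highest value of the 6 differently numbered pairs. The main test, with its SE and intervals, leaves any such pairing out. A fit with the replicate number as a block was run as an alternative. Libraries of a group differed by more than sampling noise (chi-square per gene 4.90 to 47.0). 1 gene of a pathway list is not reported here. The members and lists were chosen with earlier results of these data known. All 9 members are named, plus per pathway list the 3 tested genes with the lowest p (all where 6 or fewer) and up to 2 genes under the filter, per marker list 2 abundant genes, and the 3 genes most like the called member with the largest change. Fibroblast and endothelial markers summed to 11.9 to 13.2 CPM in CON and 16.8 to 18.6 CPM in GCA, led by COL1A1 and VWF, and cardiomyocyte markers to 23.5 to 26.8 and 37.2 to 42.4 CPM, led by TNNI3 and MYL2.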

Additional observations from a re-analysis of the deposited data

How the results depend on the processing

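With 3 libraries per group, changes as small as those of STAT2 and STAT3 lie near the threshold, and JAK2, with 22 to 59 counts in a library, ran from -0.75 to -0.14 when 1 library was left out. The number of the 9 genes called higher, 2 in the main test, was 0 with library size alone and on log2(FPKM + 1) or log2(FPKM + 0.1), and ran from 0 to 3 when 1 library was left out. The number called lower, 0 in the main test, was 1 with the GC and length correction, with or without the replicate block, 2 without replicate 1 of both groups, and 0 to 2 when 1 library was left out. With the replicate block alone these counts stayed at 2 and 0, and no call of the 9 genes changed. The block with the GC and length correction together called IFNGR1 higher (0.41, adjusted p = 0.0343). Over all tested genes 2307 were higher and 2277 lower; the block gave 2518 and 2645, the GC and length correction 1532 and 2162, and the block with that correction 1776 and 2637, which took the higher share of calls from 50.3% to 40.2%. Without replicate 1 of both groups 3710 and 3709 were called, and leaving out 1 library gave 1493 to 3225 higher (lowest without GCA 3) and 1128 to 3482 lower (lowest without GCA 3, highest without CON 1; 1297 without CON 2 and 1484 without GCA 2). Signs of uncalled values turned with the GC and length correction, without and with the block, for IFNAR1 (0.014 and 0.0065), IFNAR2 (0.11 and 0.11), JAK1 (0.031 and 0.033) and TYK2 (-0.13 and -0.13). IFNAR2 also turned without CON 2 (0.044), CON 3 (0.034) or GCA 1 (0.0087), within -0.21 to 0.044 when 1 library was left out, IFNGR1 without CON 1 (-0.087, within -0.087 to 0.30), and the keratin gene KRT19 with the correction (-0.35 and -0.35, adjusted p = 0.0300 and 0.0180). The causes were not tested. Without replicate 1 of both groups IFNAR1 (-0.45) and IFNGR2 (-0.33) passed as lower and TYK2 (0.24) as higher.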
